A study of Mus musculus with 16 samples.

Results

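The subunits of the Mediator complex were followed in bulk liver RNA-seq of mice with and without Arglu1, a transcriptional coregulator. The members were the genes of the counts table whose symbols begin with Med and a digit, together with Cdk8, Cdk19 and Ccnc, which gave 33 of 15119 genes. All 33 passed the filter on low counts and were tested among 14434 genes. There were 4 groups of 4 libraries, made from poly(A) RNA of female liver. Wild-type mice (WT) and mice lacking Arglu1 in the liver (LKO) had reached 9 months of age on chow. Each genotype then either stayed on chow or was given the high-fat diet TD. 88137 (HFD), for 12 weeks in both cases. The labels do not name the promoter or recombinase behind the deletion and do not say whether each library came from its own animal. The p-values therefore measure the spread between libraries.

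Mediator is a large complex that links DNA-bound transcription factors to RNA polymerase II and the general transcription machinery at promoters. Its head and middle modules contact the polymerase, its tail module receives many activators, and Med14 is the scaffold that joins them. A separable kinase module, made of Cdk8 or Cdk19, cyclin C (Ccnc), Med12 or Med12l, and Med13 or Med13l, binds reversibly and modulates the core. In liver, Med1 is known as a contact for nuclear receptors and Med15 as a contact for SREBP factors, which drive lipid synthesis genes. ARGLU1 protein is itself known to bind MED1.

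The libraries held 19142612 to 25120565 summed counts each, and member counts ran from 15.4 for the least covered gene and library to 1187. Arglu1 read 39.5 to 45.1 CPM (counts scaled to a common library size and composition) in WT chow and 12.8 to 15.99 CPM in LKO chow, and 40.3 to 43.9 CPM in WT HFD against 13.4 to 16.7 CPM in LKO HFD. Arglu1 was thus low in every library labelled LKO. LKO chow libraries 3 and 4 stood apart from libraries 1 and 2 on the second principal component of all genes (38.1 and 34.7 against -10.7 and -11.1). Chow values without either pair are therefore given for the called members and for some of the others. Where no such value is given, a member was not shown to be stable. On the same component WT chow libraries ran from -5.6 (library 2) to 28.3 (library 4). WT HFD libraries ran from -25.1 (library 1) to 6.9 (library 2). No pair was left out in these WT groups, only single libraries, so their spread was followed less closely. The 8 hepatocyte marker genes were each detected in every group. In bulk tissue, fewer cells of a type and less RNA per cell cannot be told apart.

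The members that passed the genotype test on both diets were Med12l, Med20 and Med28, and their promoters are shown for that reason alone. The chow call of Med28 held in only 8 of 27 alternatives. Members called on a single diet, such as Med15 and Med27, are not shown. The sequences are RefSeq windows on GRCm38.p6, from 250 bases before to 50 bases after an annotated start, 5′ to 3′ on the gene's strand. Capitals mark matches, on either strand, to the Sp/KLF box letters GGGCGG, the ETS letters CCGGAA, the letters CCAAT, the TATA box spelled TATAAA or the E-box spelled CACGTG.
Med12l, chr3:59006728-59007027 (+): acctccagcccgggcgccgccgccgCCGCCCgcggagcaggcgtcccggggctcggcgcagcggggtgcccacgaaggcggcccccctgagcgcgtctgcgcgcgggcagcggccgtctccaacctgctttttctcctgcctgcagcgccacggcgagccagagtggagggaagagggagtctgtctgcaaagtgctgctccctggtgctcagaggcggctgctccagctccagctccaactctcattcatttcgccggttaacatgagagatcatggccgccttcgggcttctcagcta
Med20, chr17:47611335-47611634 (+): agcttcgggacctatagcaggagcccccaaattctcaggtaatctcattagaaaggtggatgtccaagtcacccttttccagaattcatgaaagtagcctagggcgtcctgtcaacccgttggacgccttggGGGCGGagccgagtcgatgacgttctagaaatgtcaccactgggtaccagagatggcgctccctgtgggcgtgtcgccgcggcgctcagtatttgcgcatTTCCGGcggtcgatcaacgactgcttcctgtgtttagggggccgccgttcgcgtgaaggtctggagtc
Med28, chr5:45519979-45520278 (+): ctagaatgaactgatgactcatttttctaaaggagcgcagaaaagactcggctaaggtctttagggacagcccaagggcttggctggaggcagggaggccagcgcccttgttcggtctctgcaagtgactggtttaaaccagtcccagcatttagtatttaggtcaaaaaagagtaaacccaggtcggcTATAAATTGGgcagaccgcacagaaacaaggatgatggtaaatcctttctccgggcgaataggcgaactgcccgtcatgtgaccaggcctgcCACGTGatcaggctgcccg

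These windows differ in kind. The Med12l window had a GC content of 69% and 1 Sp/KLF match. It lies inside the gene, whose first annotated base is chr3:59005825, while the Med20 and Med28 windows hold the first base of their genes. The Med20 window had 57% GC, with 1 Sp/KLF match and 1 ETS match. The Med28 window had 51.7% GC and the only E-box of the 3, with a TATA box and a CCAAT box (read on the other strand) that overlap. RefSeq windows were found for 28 members, 32 windows in all. Of these member windows 62.5% held the Sp/KLF letters, against 35.7% of all 32851 windows, and 50% held the ETS letters, against 14.9%. The CCAAT box was at 37.5% against 37.4%, the TATA box at 9.38% against 13.6% and the E-box at 12.5% against 7.15%. The median GC content was 57.8% in member windows and 52.7% in all windows. All windows were not limited to the genes tested in liver, while every member was tested. These gaps were therefore not compared with those of other expressed genes. A match is a description of the letters and not a binding site.

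Mediator transcripts lay near the middle of the liver transcriptome. Divided by exon length, the members' median in WT chow was 3.66 CPM per kb, against 3.07 CPM per kb over the 13511 tested genes with a length, and 19 of 33 members were above that gene median. The highest per length were the head subunits Med8 (10.2 ± 0.773 CPM per kb, SD, n = 4), Med29 (9.51 ± 2.23) and Med22 (8.53 ± 1.06). The SD of Med29 spans the means of its neighbours in that order. Med1 stood at 3.65 ± 0.222 CPM per kb and the scaffold Med14 at 2.46 ± 0.464. At the low end were the kinase-module genes Cdk19 (1.60 ± 0.178) and Med13l (1.39 ± 0.316), the head gene Med18 (0.925 ± 0.190) and, lowest, Med12l (0.301 ± 0.0214). The range from Med8 to Med12l was 33.8-fold. Exon length is that of all annotated exons of a gene merged, not of the transcripts expressed. The order, the range and the paralogue shares given below thus depend on the annotation. The members' median within-group SD was 0.161 on the log2 CPM scale, against 0.223 over all genes tested.

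**Figure D1:**
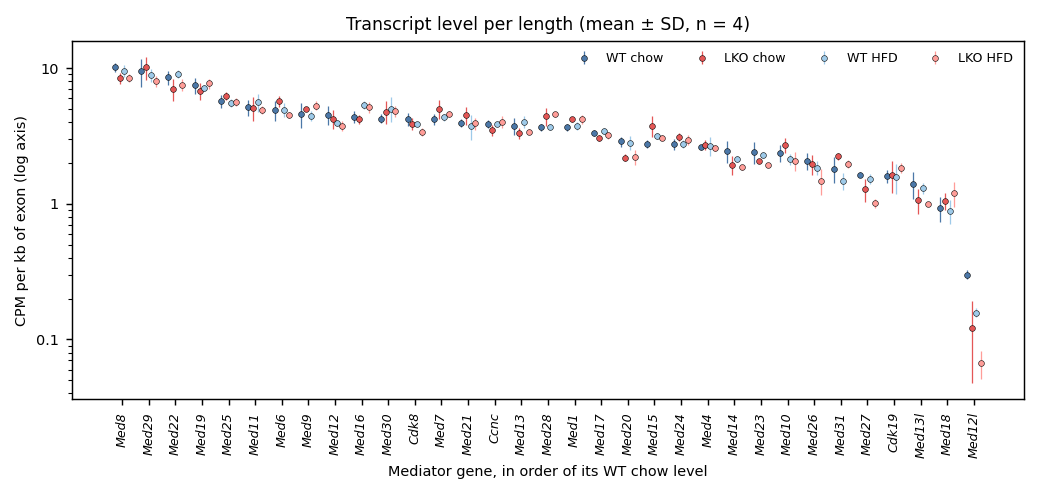
Level of each Mediator gene in CPM per kb of exon (log axis; mean ± SD, 4 libraries per group), ordered by its WT chow level. Med12l lies below the other members in all 4 groups, and its WT chow mean of 0.301 CPM per kb is above its means in the other groups.

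On chow, 5 of 33 members passed the genotype test (edgeR quasi-likelihood, Benjamini-Hochberg adjusted p below 0.05), which is 15.2% against 24.7% of all genes. Med15 and Med28 rose, 2 members against a background of 12.9% of genes higher. Med12l, Med20 and Med8 fell, 3 members against 11.8% of genes lower. The members' median log2 fold change was -0.01, against 0.02 for all genes, and their median absolute change was 0.18 against 0.25. A single member, Med12l, differed by more than 1.5-fold, a size reached by 18.4% of genes. On HFD, 4 of 33 members passed, or 12.1% against 17.9% of all genes. Med28 rose (10.3% of genes were higher), and Med12l, Med27 and Med20 fell (7.57% of genes were lower). The sign of the change was the same on both diets for 75.8% of members and 71.4% of all genes. The counts of members called are below the gene background on each diet, and no test of that difference was made.

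**Figure D2:**
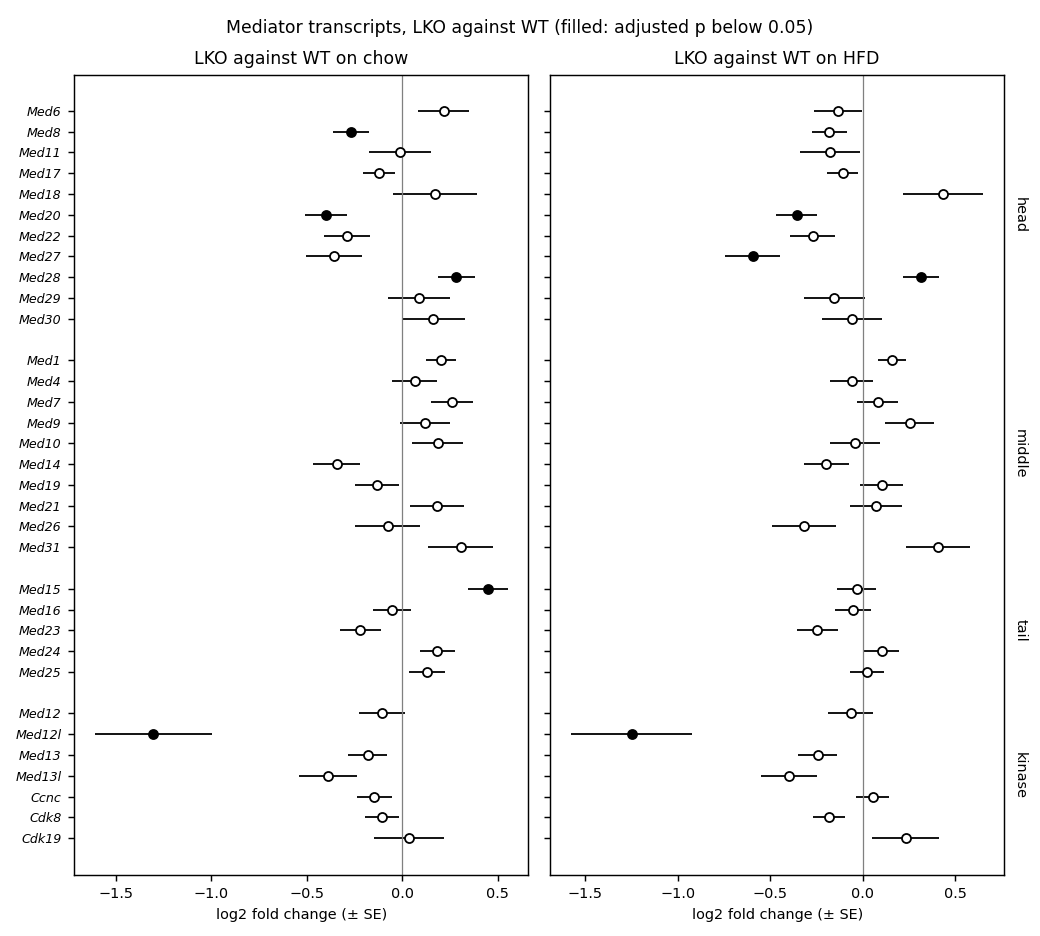
Log2 fold change ± SE of each Mediator gene in LKO against WT, on chow (left) and HFD (right), grouped by module; filled symbols passed at an adjusted p below 0.05. Most members lie close to 0, and Med12l stands apart at -1.30 and -1.25.

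Med12l, the paralogue of the kinase-module subunit Med12, fell the most in LKO. It read 3.89, 3.48, 4.14 and 3.86 CPM in WT chow libraries 1 to 4, and 2.69, 1.89, 0.683 and 0.893 CPM in LKO chow. On HFD it read 2.16, 2.11, 1.94 and 1.85 CPM in WT and 1.07, 0.716, 0.947 and 0.660 CPM in LKO. Every LKO library was below every WT library on the same diet, and LKO chow libraries 3 and 4 were the lowest on chow. The log2 fold change was -1.30 ± 0.305 (SE; edgeR adjusted p = 0.00461) on chow and -1.25 ± 0.329 (adjusted p = 0.0125) on HFD, a fall of 59.5% and of 58.0%. Without LKO chow libraries 3 and 4 the chow value was -0.75 (adjusted p = 0.0370), and without libraries 1 and 2 it was -2.29 (adjusted p = 1.3e-05). Each genotype call of Med12l held in all 26 alternatives that tested it.

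The gene spans chr3:59005825-59318682 (+) on GRCm38. Its exons overlap those of Igsf10 and P2ry12 on the opposite strand, and P2ry13 and P2ry14 lie in its introns. Whether the counting used strand is not given in the sources used here, so shared reads cannot be assigned. These neighbours did not pass in either genotype comparison: on chow Igsf10 changed by 0.38 ± 0.314, P2ry12 by 0.18 ± 0.451, P2ry13 by 0.19 ± 0.377 and P2ry14 by -0.52 ± 0.301 on the log2 scale (adjusted p = 0.424, 0.820, 0.773 and 0.238, edgeR). On HFD their values were 0.27, -0.02, 0.06 and -0.12. Gpr171, also within Med12l on the opposite strand without exon overlap, was not examined. Antisense Gm43570, whose exons overlap those of Med12l, is not in the counts table.

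None of the other 6 kinase-module genes passed on either diet in edgeR; DESeq2 and limma voom called Med13l lower on chow, and limma voom called Med13 and Med13l lower on HFD. At an unadjusted p below 0.05 there were Med13l on chow and Med13 and Med13l on HFD. Med12, which activates the kinase, read 28.4, 36.9, 41.5 and 32.9 CPM in WT chow and 31.6, 26.0, 34.3 and 38.2 CPM in LKO chow. These ranges overlap, and the log2 fold change was -0.10 ± 0.121 on chow and -0.07 ± 0.121 on HFD. Med12l made up 6.33 ± 1.01% of the Med12 and Med12l pair per exon length in WT chow, 2.92 ± 1.90% in LKO chow, 3.86 ± 0.357% in WT HFD and 1.75 ± 0.450% in LKO HFD (SD, n = 4).

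Med13 and Med13l, the alternative subunits that tether the kinase to the core, were both lower on average. Med13l read 15.9, 22.9, 27.4 and 19.8 CPM in WT chow against 19.9, 18.7, 13.9 and 13.2 CPM in LKO chow, groups that overlap. On HFD it read 22.5, 20.8, 18.8 and 18.7 CPM in WT against 15.5, 14.8, 15.8 and 15.01 CPM in LKO, groups that did not overlap. Its log2 fold change was -0.39 ± 0.151 on chow (edgeR adjusted p = 0.0698) and -0.40 ± 0.151 on HFD (adjusted p = 0.0765), and 6 of 27 alternatives passed on each diet. On chow it was -0.67 (adjusted p = 0.00444) without LKO chow libraries 1 and 2 and -0.16 (adjusted p = 0.536) without libraries 3 and 4. Med13 read 37.3, 38.4, 49.2 and 37.7 CPM in WT chow and 39.8, 36.6, 35.6 and 31.4 CPM in LKO chow. On HFD Med13 read 46.6, 37.8, 43.2 and 47.5 CPM in WT and 38.7, 36.4, 37.2 and 35.3 CPM in LKO. Med13 changed by -0.18 ± 0.103 on chow and by -0.25 ± 0.103 on HFD (adjusted p = 0.225 and 0.114, edgeR).

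The kinases themselves showed no called difference. Cdk8 read 38.0, 38.1, 46.8 and 42.4 CPM in WT chow and 40.4, 35.0, 42.5 and 35.5 CPM in LKO chow. On HFD Cdk8 read 37.9, 38.6, 37.6 and 38.0 CPM in WT and 33.1, 35.7, 30.5 and 34.6 CPM in LKO, without overlap. Its log2 change was -0.11 ± 0.0884 on chow and -0.18 ± 0.0885 on HFD. Cdk19 read 8.29, 10.8, 9.09 and 9.18 CPM in WT chow and 12.996, 9.71, 7.84 and 7.67 CPM in LKO chow, a change of 0.03 ± 0.184. On HFD it read 11.1, 5.95, 9.52 and 10.1 CPM in WT and 11.7, 11.5, 9.67 and 10.3 CPM in LKO, a change of 0.23 ± 0.183. Cdk19 was 27.6 ± 3.26% of the Cdk8 and Cdk19 pair per length in WT chow and 29.3 ± 5.14% in LKO chow. The share on HFD was 28.6 ± 5.51% in WT and 35.1 ± 1.63% in LKO. The cyclin gene Ccnc changed by -0.15 ± 0.0908 on chow and 0.05 ± 0.0903 on HFD; its exons overlap those of Tstd3 on the opposite strand.

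**Figure D3:**
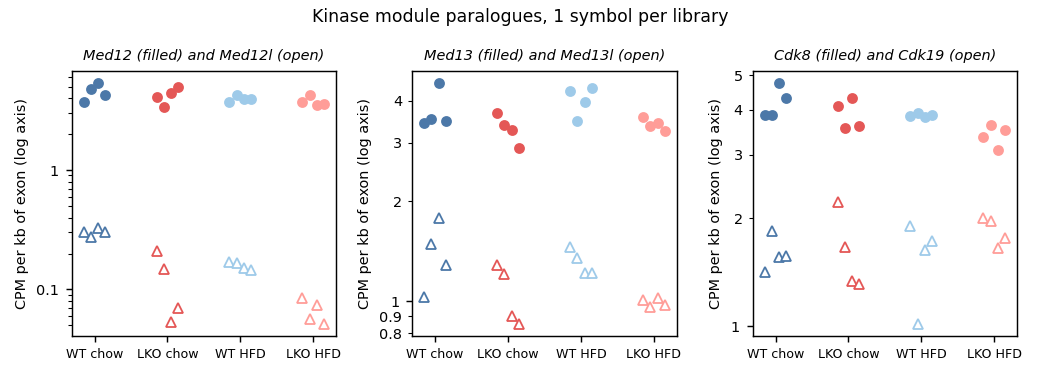
Kinase-module paralogues in CPM per kb of exon (log axis), 1 symbol per library; filled circles are Med12, Med13 and Cdk8, and open triangles are Med12l, Med13l and Cdk19. Med12l separates by genotype within each diet, while Med12 overlaps between genotypes.

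In the head module, 3 of 11 members passed on each diet, beside 24.7% of all genes on chow and 17.9% on HFD. Med20, which with Med8 and Med18 forms a movable lobe of the head as known from yeast, fell on both. Its exons overlap those of Gm20517, a protein-coding gene on the same strand that is not in the counts table, so shared reads cannot be assigned. Med20 read 21.7, 18.5, 22.1 and 22.3 CPM in WT chow against 15.6, 14.9, 16.7 and 16.9 CPM in LKO chow, with no overlap. Under HFD Med20 read 17.1, 22.8, 21.4 and 21.05 CPM in WT against 17.5, 15.7, 13.3 and 17.7 CPM in LKO, where WT library 1 was inside the LKO range. The log2 fold change was -0.40 ± 0.109 on chow (edgeR adjusted p = 0.0127) and -0.36 ± 0.109 on HFD (adjusted p = 0.0287). The chow call was lost without LKO chow libraries 1 and 2, where the change was -0.33 (adjusted p = 0.0658). Without libraries 3 and 4 the chow change was -0.47 (adjusted p = 0.0265). The HFD call held in 22 of 27 alternatives.

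Med28, a head-associated subunit of animals, rose on both diets. It read 19.7, 18.5, 18.02 and 17.1 CPM in WT chow against 19.3, 26.7, 23.1 and 20.0 CPM in LKO chow, overlapping only through the highest WT and the lowest LKO library. HFD libraries gave 16.9, 18.7, 18.9 and 18.9 CPM in WT against 22.7, 21.6, 23.4 and 23.8 CPM in LKO, without overlap. The log2 fold change was 0.28 ± 0.0978 on chow (edgeR adjusted p = 0.0425) and 0.32 ± 0.0975 on HFD (adjusted p = 0.0309). The chow call was lost without LKO chow libraries 1 and 2 (0.23, adjusted p = 0.0641) and without libraries 3 and 4 (0.33, adjusted p = 0.0621). The call held in 8 of 27 alternatives on chow and in 20 of 27 on HFD.

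Med27, a subunit at the boundary of head and tail, fell on HFD. Its exons overlap those of antisense Gm13402, which is not in the counts table, so shared reads cannot be assigned. Med27 read 4.76, 5.66, 5.04 and 4.83 CPM in WT HFD against 3.02, 3.34, 3.58 and 3.46 CPM in LKO HFD, with a wide gap between the groups. On chow it read 5.32, 5.62, 5.60 and 5.22 CPM in WT against 4.49, 3.05, 4.69 and 4.78 CPM in LKO. The chow groups did not overlap either, though LKO library 2 was low. The log2 fold change was -0.60 ± 0.149 on HFD (edgeR adjusted p = 0.00936), called in all 27 alternatives, and -0.36 ± 0.148 on chow (adjusted p = 0.0879). The chow value was -0.20 (adjusted p = 0.321) without LKO chow libraries 1 and 2 and -0.53 (adjusted p = 0.0520) without libraries 3 and 4. Med8 fell on chow: it read 33.4, 27.7, 30.2 and 30.9 CPM in WT and 22.6, 25.9, 24.8 and 28.1 CPM in LKO, overlapping only by WT library 2 and LKO library 4. Its change was -0.27 ± 0.0944 (edgeR adjusted p = 0.0451), called in 9 of 27 alternatives, and -0.18 ± 0.0943 on HFD (adjusted p = 0.204). On chow it was -0.21 (adjusted p = 0.153) without LKO chow libraries 1 and 2 and -0.33 (adjusted p = 0.0544) without libraries 3 and 4. The other 7 head genes (Med6, Med11, Med17, Med18, Med22, Med29 and Med30) did not pass on either diet in edgeR, and limma voom called Med22 lower on both (-0.42, adjusted p = 0.0181, on chow and -0.28, adjusted p = 0.0230, on HFD). Without LKO chow libraries 1 and 2 the edgeR chow value of Med22 was -0.50 (adjusted p = 0.00452), and without libraries 3 and 4 it was -0.11 (adjusted p = 0.613). Among these, the lowest value on chow was -0.29 ± 0.122 for Med22 and the highest on HFD was 0.43 ± 0.218 for Med18.

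**Figure D4:**
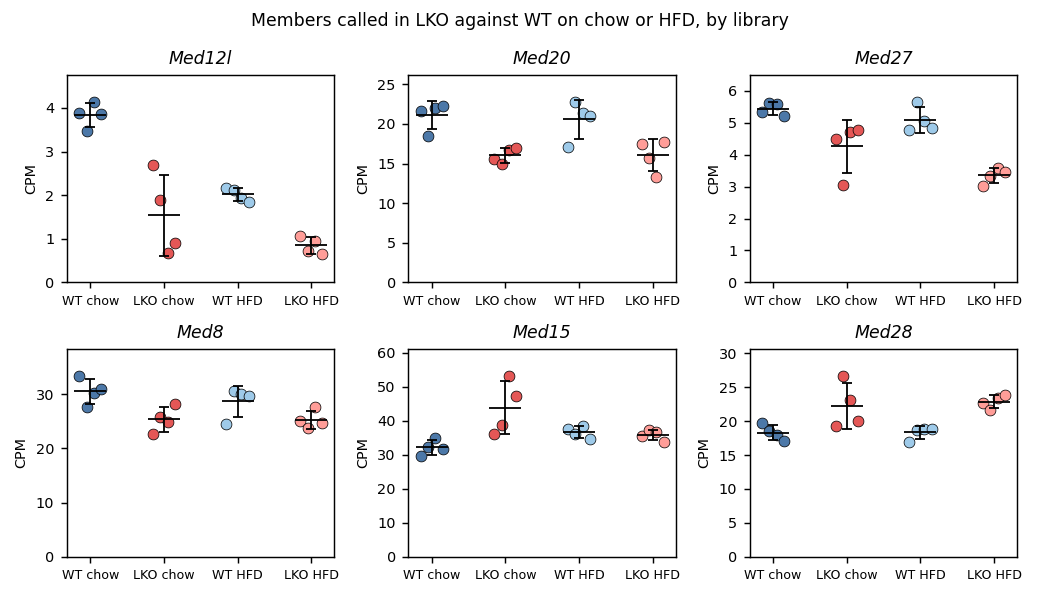
CPM by library for the 6 members called in LKO against WT on chow or HFD; points are libraries, horizontal bars with whiskers are means ± SD (n = 4), and axes start at 0. Med12l and Med27 separate by genotype on both diets, and Med15 is highest in LKO chow libraries 3 and 4.

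In the tail, 1 of 5 members passed on chow, beside 24.7% of all genes. Med15 read 29.6, 32.1, 35.0 and 31.7 CPM in WT chow against 36.0, 38.8, 53.2 and 47.3 CPM in LKO chow. Every LKO library was above every WT library, with libraries 3 and 4 the highest. The change was 0.45 ± 0.105 (edgeR adjusted p = 0.00467), and it was 0.22 (adjusted p = 0.103) without libraries 3 and 4 and 0.64 (adjusted p = 4.9e-05) without libraries 1 and 2. With HFD Med15 read 37.6, 36.0, 38.4 and 34.6 CPM in WT and 35.6, 37.2, 36.8 and 33.6 CPM in LKO, which overlap, with a change of -0.03 ± 0.104. Exons of Med15 overlap the opposite-strand pseudogene Gm18335, which is not in the counts table, so shared reads cannot be assigned. Med23, a subunit that receives ELK1, changed by -0.22 ± 0.109 on chow and -0.25 ± 0.109 on HFD. Its HFD groups did not overlap, but its adjusted p was 0.134 (edgeR); it was 0.0427 with limma voom and 0.0378 with only the groups compared. Med16, Med24 and Med25 stayed within -0.05 and 0.18 on chow and within -0.05 and 0.10 on HFD.

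The middle module had no member past the threshold in edgeR on either diet; its lowest adjusted p was 0.0505 on chow and 0.117 on HFD. At an unadjusted p below 0.05 there were Med1, Med7 and Med14 on chow and Med31 on HFD, and DESeq2 and limma voom each called Med14 lower on chow, while limma voom called Med31 higher on HFD. Med1, the nuclear receptor contact, read 31.4, 34.3, 32.5 and 29.7 CPM in WT chow against 37.9, 35.1, 38.0 and 36.1 CPM in LKO chow. All 4 LKO libraries were above all 4 WT libraries, yet the change of 0.20 ± 0.0776 had an adjusted p of 0.0668 (edgeR), and 2 of 27 alternatives passed. For HFD the values were 32.1, 30.9, 32.7 and 35.6 CPM in WT against 39.6, 38.0, 34.6 and 34.3 CPM in LKO, with overlap and a change of 0.16 ± 0.0774. The scaffold Med14 changed by -0.34 ± 0.123 on chow (edgeR adjusted p = 0.0505; 7 of 27 alternatives passed) and by -0.20 ± 0.123 on HFD. Its chow value was -0.53 (adjusted p = 0.00665) without LKO chow libraries 1 and 2 and -0.18 (adjusted p = 0.395) without libraries 3 and 4. The other 8 middle genes ranged from -0.13 (Med19) to 0.31 (Med31) on chow and from -0.32 (Med26) to 0.41 (Med31) on HFD. Among these, Med7 changed by 0.26 ± 0.111 on chow (edgeR adjusted p = 0.0957). Its chow value was 0.41 (adjusted p = 0.0104) without LKO chow libraries 1 and 2, and ran from 0.10 to 0.41 over 27 alternatives. Exons of Med19 overlap Tmx2 and Zdhhc5, and those of Med21 overlap Tm7sf3, on the opposite strand.

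Groups that did not overlap were seen for 5 members on chow (Med1, Med12l, Med15, Med20 and Med27), against 21.4% of all genes. On HFD there were 10 such members, against 27.8% of all genes: Med12l, Med27 and Med28, which passed, and Cdk8, Med9, Med13l, Med14, Med22, Med23 and Med31, which did not.

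The diet was compared within each genotype. In WT, edgeR called 0 of 33 members for HFD against chow, where 2.04% of all genes passed. At an unadjusted p below 0.05 there were 2 members, and DESeq2 and limma voom each called 1, Med12l. Med12l changed by -0.93 ± 0.300 (edgeR adjusted p = 0.126), and the WT libraries on HFD, at 1.85 to 2.16 CPM, were all below those on chow, at 3.48 to 4.14 CPM. The other was Med16, a tail subunit, at 0.28 ± 0.0975 (adjusted p = 0.160). In LKO, edgeR called 0 members, where 2.22% of all genes passed. Here 9 members had an unadjusted p below 0.05, DESeq2 called 0 and limma voom called 3 (Med10 and Med15 lower, Med16 higher). In neither genotype are all-gene shares given for the unadjusted, DESeq2 or limma voom counts, so those counts have no background beside them. The edgeR values were -0.38 ± 0.134 for Med10, -0.29 ± 0.104 for Med15 and 0.28 ± 0.0973 for Med16, and the lowest adjusted p was 0.138. Without LKO chow libraries 1 and 2 they were -0.52, -0.49 and 0.27, and without libraries 3 and 4 they were -0.23, -0.06 and 0.30. Med12l changed by -0.88 ± 0.333 in LKO (edgeR adjusted p = 0.175), by 0.11 without libraries 1 and 2 and by -1.43 (adjusted p = 0.00969) without libraries 3 and 4.

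The test of whether the genotype change differed between diets called 0 members in edgeR, DESeq2 and limma voom. In edgeR 0.0208% of all genes passed at the adjusted threshold. At an unadjusted p below 0.05 there was 1 member, a count with no all-gene share beside it. That member was Med15, whose genotype change was lower on HFD than on chow by -0.48 ± 0.148 on the log2 scale (edgeR adjusted p = 0.402). Without LKO chow libraries 1 and 2 it was -0.68 (adjusted p = 0.00407), and without libraries 3 and 4 it was -0.25 (adjusted p = 0.692). For Med12l the difference was 0.05 ± 0.472, and it was 1.03 (adjusted p = 0.0640) without libraries 1 and 2 and -0.50 (adjusted p = 0.747) without libraries 3 and 4. The changes of Med12l, Med20, Med27 and Med28 were not shown to differ between the diets.

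Lists of the complexes that work with Mediator gave a comparison for scale; they were chosen with earlier results of these data known. Cohesin and its loader join Mediator at enhancer loops, and their list here also held Ctcf and the cohesin regulators Wapl and Pds5b. Of the 11 genes of this list, 8 fell on chow (median log2 change -0.45) and 3 fell on HFD (median -0.28). Of all genes, 11.8% and 7.57% were lower. Ctcf changed by -0.27 ± 0.0670 on chow and by -0.39 ± 0.0671 on HFD (edgeR adjusted p = 0.00650 and 0.000489). Smc1a, a cohesin ring subunit, fell by 0.84 ± 0.105 on chow (edgeR adjusted p = 1.7e-05) and by 0.48 ± 0.104 on HFD (adjusted p = 0.00337). Wapl, which releases cohesin, fell by 0.68 ± 0.125 and by 0.50 ± 0.124. On chow the count was 4 without LKO chow libraries 3 and 4, and 9 without libraries 1 and 2. On HFD it was 5 without either pair and 7 with limma voom.

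The other lists are read against the 24.7% of all genes called on chow and 17.9% on HFD. Among 13 RNA polymerase II subunits, Polr2g rose (0.45 ± 0.151) and Polr2m fell (-0.34 ± 0.116). Among 18 general transcription factors 2 rose and 3 fell, led by Gtf2b (0.83 ± 0.142, edgeR adjusted p = 0.000414), which places the polymerase at the start site. Of 16 TFIID subunits, Taf1 (-0.35 ± 0.117) and Taf7 (-0.36 ± 0.122) fell; with the replicate block no TFIID subunit was called on either diet. Of 30 elongation factors, 3 rose and 3 fell, with Mllt3 lowest (-0.94 ± 0.157); without LKO chow libraries 1 and 2 the counts were 3 and 10. Of 19 coactivators and corepressors 3 fell, among them the acetyltransferase Kat2b (-0.72 ± 0.116). Of 15 Integrator subunits, which cleave nascent RNA, Ints7 fell (-0.39 ± 0.117). Without LKO chow libraries 3 and 4, 0 Integrator and 0 polymerase subunits were called on chow, and 1 general transcription factor rose and 1 fell. Without libraries 1 and 2, 4 Integrator subunits fell, and 4 polymerase subunits rose and 2 fell. On HFD, 1 general transcription factor (Gtf2e1, -0.50 ± 0.112), 1 TFIID subunit (Taf2, -0.25 ± 0.0843) and 1 Integrator subunit (Ints6, -0.50 ± 0.116) fell, 2 elongation factors rose and 3 fell, and 1 coactivator rose and 3 fell. Integrator falls on HFD were 3 with either pair of LKO chow libraries left out and 5 with limma voom. RNA polymerase II subunits had no call on HFD in edgeR or DESeq2, 1 without LKO chow libraries 1 and 2, and 2 in limma voom. Their lowest edgeR adjusted p was 0.0731, for Polr2a.

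**Figure D5:**
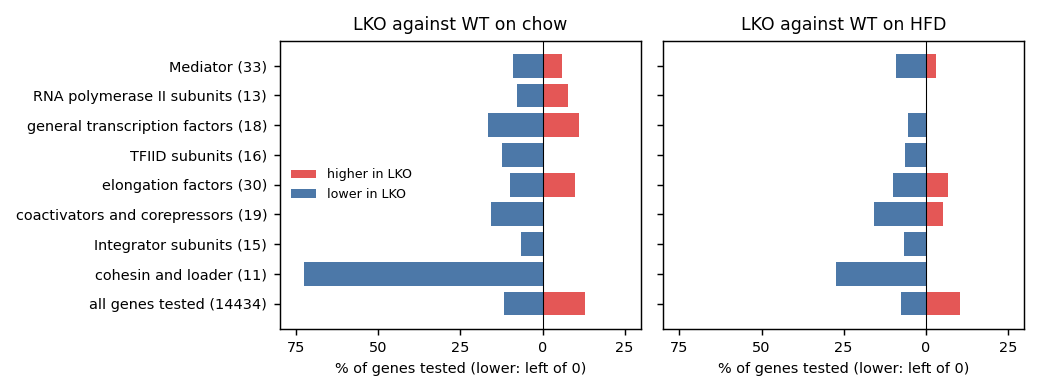
Share of the genes of each complex called higher (right of 0) or lower (left of 0) in LKO against WT, in percent of the genes tested (number in brackets), on chow and HFD. Mediator is below the all-gene share in each direction on chow. The cohesin and loader list, which also holds Ctcf, Wapl and Pds5b, reaches 72.7% lower on chow.

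Marker genes of other liver cell types were summed in the same libraries, and no marker gene was at 0 throughout a group. Endothelial markers summed to 117 to 296 CPM in WT chow and 107 to 321 CPM in LKO chow, and to 126 to 343 CPM in WT HFD and 141 to 227 CPM in LKO HFD. Kupffer and macrophage markers summed to 225 to 551 CPM in WT chow and 113 to 524 CPM in LKO chow, and to 322 to 548 CPM in WT HFD and 348 to 625 CPM in LKO HFD. These ranges overlap between genotypes on each diet, as do the summed ranges of the stellate, bile duct, T and NK, and B and plasma markers. Hepatocyte markers summed to 89865 to 120557 CPM in WT chow and 114623 to 123834 CPM in LKO chow, which overlap. The HFD sums did not overlap, with WT libraries between 68192 and 72565 CPM but LKO libraries between 84920 and 98323 CPM, and the WT HFD sums were below those of WT chow. Of 8 hepatocyte markers 4 fell in LKO on chow (Cps1, Hnf4a, Serpina1c and Tat), and on HFD Alb rose while Serpina1c, Tat and Ttr fell. Prf1 of T and NK cells rose on both diets and Jchain of plasma cells fell on chow. In WT the stellate genes Col1a1, Col1a2 and Col3a1 rose with HFD, and the hepatocyte markers Alb (-0.74, edgeR adjusted p = 0.00179) and Hnf4a (-0.36, adjusted p = 0.0458) fell. The part of these shifts in the Mediator values was not tested.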

How the data were processed

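Estimated counts per gene for 16 libraries were read from the authors' deposited counts table; 51.1% of the values were whole, and the rest were rounded to whole numbers before testing. Per the submitters' processing notes, Bowtie2 and DESeq2 were used with mm10; the counting tool, the versions and the strand setting are not given in the sources used here. A second deposited table holds the same estimated counts over 35712 genes with its chow columns 1 row lower; after moving them up, all 15119 shared genes matched (relative tolerance 1e-06) except for 1 value, and it served as an alternative. Counts were normalised by TMM and tested with edgeR 4.0.16 quasi-likelihood (robust, filterByExpr by group, 1 mean per group over all 16 libraries, 2-sided, Benjamini-Hochberg over 14434 genes, threshold 0.05). Each SE is the absolute log2 fold change over the square root of F. Alternatives used DESeq2 1.42.0, limma 3.58.1 voom, other scalings and filters, a replicate block and left-out libraries. The tests were checked on simulated counts. Exon lengths and gene positions came from GENCODE M21 (GRCm38), promoter windows from RefSeq GRCm38.p6. Named genes were all members by module, with values by library for Med1, the paralogue pairs and the called members, and up to 4 genes of lowest p per list. Members and lists were chosen with earlier results of these data known. Library totals of 19142612 to 25120565 limit precision for low genes such as Med12l.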

Additional observations from a re-analysis of the deposited data

Results flagged for a closer look

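In 11 of 132 member-by-group sets of 4 libraries, 1 library lay far from the other 3 (its gap to the nearest, over the range, passed Dixon's 95% critical value for 4); chance gives about 1 in 20, or 6.6 sets. In LKO HFD, library 3 was high for Med10 (11.5 CPM; the next was 8.83) and low for Med16 (20.5 CPM; the next was 24.8), library 4 was high for Med6 (7.01 CPM) and library 1 for Med9 (11.2 CPM). In LKO chow, library 4 was high for Med18 (2.52 CPM) and library 2 low for Med27 (3.05 CPM; the next was 4.49). In WT chow, library 3 was high for Med13 (49.2 CPM; the next was 38.4) and library 2 low for Med20 (18.5 CPM; the next was 21.7). In WT HFD, library 1 was low for Med28 (16.9 CPM) and Med8 (24.4 CPM), and library 2 was low for Med9 (7.47 CPM). Among the members that passed a genotype test, the sets of Med8, Med20, Med27 and Med28 each hold 1 such library.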

How the results depend on the processing

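The number of members called on chow (5) became 3 with a replicate block or with only the groups compared, 2 without LKO chow libraries 3 and 4, and 3 to 7 with single libraries left out. Without LKO chow libraries 1 and 2 the called set changed: Med12l and Med15 stayed, Med8, Med20 and Med28 were lost, and Med7, Med13l, Med14 and Med22 passed. On HFD (4) the number of members called became 10 with limma voom, 8 with only the groups compared and 2 to 5 with single libraries left out. The fall to 2 came without WT HFD library 2, 3 or 4 or LKO HFD library 3, and the chow fall to 3 without any of 8 libraries, among them LKO chow library 3. For diet in WT (0) it became 1 with DESeq2, limma voom, only the groups compared, or either pair of LKO chow libraries left out, and stayed at 0 with single libraries left out. For diet in LKO (0) it became 3 with limma voom, 4 without LKO chow libraries 1 and 2, 1 without 3 and 4, and 0 to 1 with single libraries left out (1 without LKO chow library 1). For the interaction (0) it became 1 without LKO chow libraries 1 and 2 and stayed at 0 with single libraries left out. Calls over all genes moved too: with single libraries left out they ran from 2698 to 3919 on chow and from 1977 to 2833 on HFD. They ran from 155 to 359 for diet in WT and from 111 to 656 for diet in LKO. All-gene shares are not given for the other settings or for unadjusted p, so those member counts have no background beside them. The cause of these changes was not tested. Cdk19 on chow (0.03) reversed to -0.11 with limma voom and to -0.27 without LKO chow libraries 1 and 2. It was 0.28 without libraries 3 and 4, and ranged from -0.15 to 0.12 with single libraries left out. Med12 on chow (-0.10) reversed to 0.016 with limma voom and 0.051 without LKO chow libraries 1 and 2, and was -0.28 without libraries 3 and 4. Med11 on chow (-0.01) was 0.18 without LKO chow libraries 1 and 2 and -0.24 without libraries 3 and 4. Of 24 correlations of same-numbered libraries, 5 were over 0.1 (median -0.0178, from -0.278 to 0.318). Libraries of different numbers were not compared, so these values cannot tell whether replicate numbers pair the samples. The replicate block gave 3 members on chow, 4 on HFD and 0 elsewhere. A mean count of at least 50 removed Med12l and Med18. Low counts limit Med12l most.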
